A study of Mus musculus with 18 samples.

Results

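The genes of cytochrome P450 families 1 to 4 were followed through an RNA-sequencing experiment in mouse hepatocytes. A gene was a member where the symbol in the authors' deposited tables was Cyp, a family digit from 1 to 4, a lower-case subfamily letter and a number. The rule found 73 of 37991 counted genes, in 19 subfamilies, of which 5 carry the pseudogene suffix -ps. Counts were high enough for testing in 38 members of 15 subfamilies, and the other 35 members stayed below the filter on low counts.

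The cells were hepatocytes from male CD-1 mice, an outbred stock, sold frozen in plateable form, and total RNA was sequenced in 18 libraries, 3 in each of 6 groups. One group received PBS alone (the vehicle) and the siRNA group TTR-siRNA, which targets the mRNA of transthyretin (Ttr). Of the REVERSIRs, given without siRNA to 1 group each, the scrambled kind is written scrambled REVERSIR here and the kind directed at this siRNA TTR REVERSIR. In the last 2 groups TTR-siRNA was combined with either of them, written siRNA + scrambled REVERSIR and siRNA + TTR REVERSIR. A REVERSIR is a short synthetic oligonucleotide that pairs with the guide strand of an siRNA and takes it out of action, and the scrambled one serves as control for its sequence. Doses, times, the age of the animals and the number of donors are not given in the labels. Nothing says that replicates came from separate animals or cultures, so the p-values measure only the spread between these libraries, which may be technical.

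Cytochromes P450 are heme enzymes of the endoplasmic reticulum that insert 1 oxygen atom into a substrate, with electrons handed over by the reductase Por. Families 1 to 3 oxidise drugs, toxins and steroids, and family 4 hydroxylates the end of fatty acid chains. Liver holds the largest set of these enzymes, many are switched on by the receptors CAR, PXR, AHR and PPARA when a foreign compound or fatty acid arrives, and their mRNAs are known to decline when hepatocytes are taken into culture. Several mouse subfamilies are runs of recently duplicated neighbouring genes, which limits how well short reads tell their members apart.

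The label check came out as the treatments name it. Ttr was at 1111 ± 96.8 CPM (SD, n = 3) in PBS. It was at 243 ± 19.1 with siRNA and 226 ± 0.691 with siRNA + scrambled REVERSIR, and at 1118 ± 47.6, 1265 ± 157 and 1054 ± 112 in scrambled REVERSIR, in TTR REVERSIR and in siRNA + TTR REVERSIR. Levels are given as CPM, a gene's counts scaled to a common library size after TMM scaling, a factor that centres the bulk of genes between libraries. Library totals ran from 1755819 to 10145265 counts. The first 2 PBS libraries differed from the rest in RNA makeup: mitochondrial ribosomal RNA took 24.3% and 24.1% of their counts against 1.69% to 9.56% in the other 16, and their TMM factors were 0.747 and 0.758 against 0.986 to 1.07. All results against PBS rest on these libraries and on PBS replicate 3, and the calls are given below with and without the first 2. Hepatocyte markers summed to between 41542 and 55169 CPM over the 18 libraries, with albumin (Alb) alone at a mean of 41962 CPM. Of the markers of other liver cells, 3 of 8 for Kupffer cells, 4 of 8 for endothelium, 5 of 9 for stellate cells and 3 of 6 for cholangiocytes passed the filter. None of these markers was at 0 in all libraries, and their sums ran from 276 to 381, 40.9 to 63.5, 120.0 to 162 and 9.84 to 16.4 CPM in that order. Cd68 supplied 317 CPM of the first sum and Reln 104 CPM of the third, while the Kupffer cell gene Clec4f was at 4.26 CPM. None of the markers of these other cells passed an adjusted p of 0.05 in any comparison. In such bulk samples, fewer cells of a type and less RNA per cell cannot be told apart.

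The 73 members took between 0.411% and 0.557% of all counts in a library. On the CPM scale they summed to 5595, 5429 and 5150.2 in PBS, and to between 4685 and 5196 in the 15 treated libraries. PBS replicate 3 lies within the treated libraries, and PBS replicates 1 and 2 lie above all others. A few genes made most of this RNA. Cyp3a11 gave 26.3% of the members' CPM, the first 2 members 43.6%, the first 5 66.3% and the first 10 85.0%. By subfamily, 3a held 32.2% and 2c held 28.3%, followed by 2e with 9.32%, 2d with 7.59%, 2b with 7.06% and 4v with 5.09%. The 2d share leaves out Cyp2d10, which the rule did not find because it carries no symbol in the deposited tables. Subfamily 4a, whose genes are classical targets of PPARA, held 0.619%, and 1a held 0.897%.

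The shares above do not correct for gene length, and neither do the mean CPM given below for genes outside the members. Single members were ranked per length, as CPM per kilobase of exon. Cyp3a11 led with 562, followed by Cyp2c70 with 438, Cyp2e1 with 255, Cyp2b10 with 167 and Cyp2c29 with 164. The next were Cyp2d26 at 119, Cyp3a13 at 86.3, Cyp4v3 at 86.2, Cyp2d9 at 76.9 and Cyp2f2 at 49.6. Cyp2b10 and Cyp2c29 overlapped over the libraries, as did Cyp3a13 and Cyp4v3, so their order is not set by these data. At the other end of the tested genes were Cyp2c38 at 0.734 and Cyp2s1 at 0.510. The spread within groups was small for the abundant members and wide for the rare ones: it was 2.41% of the mean for Cyp4v3 and 55.8% for Cyp3a44.

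**Figure D1:**
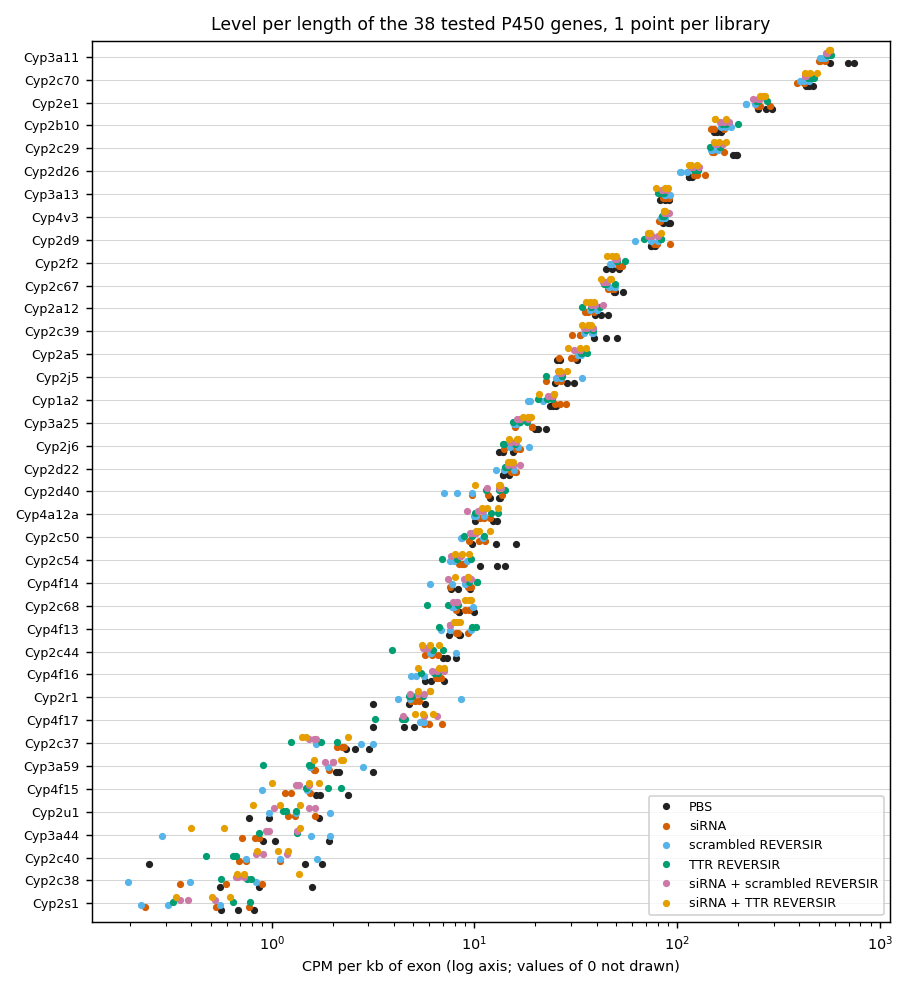
Level of the 38 tested P450 genes in CPM per kilobase of exon (horizontal log axis), 1 point per library coloured by group; values of 0 are not drawn. Genes are ordered by mean level, from Cyp3a11 at 562 down to Cyp2s1 at 0.510, and points of 1 row spread most among the lowest genes, where counts are few.

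The 35 members below the filter had between 2 and 125 counts over all 18 libraries, with a median of 15. They include classical induced genes. Cyp1a1, the most inducible AHR target, had 44 counts in all, and Cyp1b1, also an AHR target, had 2. Cyp4a10 and Cyp4a14, which rise with PPARA ligands, had 109 and 43 counts. Of the members known to be higher in female liver, 8 of 10 stayed below the filter, among them Cyp2b9 with 19 counts, Cyp2b13 with 3, Cyp3a41a with 11 and Cyp4a14, while Cyp3a44 and Cyp2c40 had means of 1.95 and 1.97 CPM. Of 3 members known to be higher in male liver, 2 passed the filter. Cyp2d9, a testosterone hydroxylase, had a mean of 127 CPM and Cyp4a12a one of 27.2 CPM, while Cyp4a12b stayed below the filter. In a fit without the filter, 0 of the 35 passed in each of the 5 comparisons with PBS (edgeR, adjusted p), with 1, 1, 0, 1 and 0 at an unadjusted p under 0.05 in the order siRNA, scrambled, TTR, siRNA + scrambled and siRNA + TTR REVERSIR. No direction is read from them.

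Most members lie in runs of neighbours (build NCBIM37, GENCODE vM1). The 2c genes with a position, 15 of 16, lie on chromosome 19 between 39081509 and 44103737, all 9 of the 3a genes on chromosome 5 between 138334160 and 146924861, the 7 of 4a on chromosome 4 between 114971651 and 115294207, and the 7 of 2d on chromosome 15 between 82200958 and 82624675. The 2a and 2b genes share chromosome 7 between 26682639 and 27821826, with Cyp2g1 among them. To see how far reads could be confused, every 50-base stretch of each tested member's coding transcripts was looked up in the coding transcripts of other genes. Noncoding transcripts were not searched, so the shares are lower limits. The share found elsewhere was 0 in 7 of 38 members, over 10% in 18 and over 25% in 11. It was 64.5% for Cyp2c40, 53.5% for Cyp2c67 and 48.9% for Cyp4a12a (with Cyp4a12b), so the values of these genes are uncertain. Among the genes described next it was 0.476% for Cyp2c29, 11.4% for Cyp2c39 (mostly with Cyp2c38), 14.7% for Cyp3a11 and 430 of 1720 stretches for Cyp2c54 (mostly with Cyp2c50). Neither labels nor headers say whether reads were counted by strand, so reads of overlapping genes on opposite strands cannot be told apart.

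Against PBS, the members that passed the test were all lower under treatment after TMM scaling and all came from subfamilies 3a and 2c. With library totals alone as the scaling, Cyp2c29 in siRNA and in TTR REVERSIR turned to values just above 0, the other 7 of these 9 values stayed below 0, and none of the 9 passed. They were Cyp3a11, the main drug- and steroid-oxidising P450 of mouse liver and a PXR target; Cyp2c29, a CYP2C inducible by phenobarbital through CAR; Cyp2c39, described as a retinoic acid hydroxylase; and Cyp2c54, an epoxygenase of polyunsaturated fatty acids. Calls are adjusted p-values under 0.05 (Benjamini-Hochberg over 11153 genes) from edgeR's quasi-likelihood test on counts after TMM scaling. With the siRNA alone 4 of 38 members were lower and 0 higher, where 1.6% of all genes tested were lower. Scrambled REVERSIR gave 2 lower members beside 0.305% of all genes, and TTR REVERSIR gave 1 beside 0.359%. Of the combinations, siRNA + scrambled REVERSIR gave 1 beside 0.403% and siRNA + TTR REVERSIR gave 1 beside 0.439%. At an unadjusted p under 0.05 there were 12, 12, 13, 11 and 10 of the 38 members in the same order, beside 20.1%, 14.7%, 16.4%, 17.7% and 17.7% of all genes. The 5 comparisons share the same 3 PBS libraries, so their values are set side by side and not counted as separate support.

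Cyp3a11 (chr5:146666002-146691540, minus strand, protein coding) was measured at 1737, 1629 and 1336 CPM in PBS, 1177, 1253 and 1181 in siRNA, 1180.5, 1224 and 1250.3 in scrambled REVERSIR, 1291, 1342 and 1321 in TTR REVERSIR, 1269, 1280.2 and 1279 in siRNA + scrambled REVERSIR and 1331, 1322 and 1326 in siRNA + TTR REVERSIR. PBS replicates 1 and 2 are the highest libraries, and PBS replicate 3 lies at the upper edge of the treated ones and below TTR REVERSIR replicate 2. The log2 fold change was −0.38 ± 0.077 (SE) for siRNA (edgeR, adjusted p = 0.0163) and −0.36 ± 0.077 (SE) for scrambled REVERSIR (adjusted p = 0.0382), which both passed. In TTR REVERSIR it was −0.25 ± 0.077 (SE), in siRNA + scrambled REVERSIR −0.30 ± 0.077 (SE) and in siRNA + TTR REVERSIR −0.24 ± 0.076 (SE), with edgeR adjusted p of 0.105, 0.0604 and 0.104.

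Cyp2c29 (chr19:39315441-39405189, plus strand, protein coding) was measured at 378, 384 and 364 CPM in PBS, 296, 331 and 289 in siRNA, 285, 287 and 307 in scrambled REVERSIR, 315, 283 and 317 in TTR REVERSIR, 324, 303 and 298 in siRNA + scrambled REVERSIR and 339, 295 and 312 in siRNA + TTR REVERSIR. All 3 PBS libraries lie above all 15 treated ones. Its log2 fold change passed in siRNA at −0.30 ± 0.068 (SE) (edgeR, adjusted p = 0.0237), in scrambled REVERSIR at −0.36 ± 0.070 (SE) (adjusted p = 0.0283) and in TTR REVERSIR at −0.30 ± 0.069 (SE) (adjusted p = 0.0426). In siRNA + scrambled REVERSIR it was −0.28 ± 0.068 (SE) and in siRNA + TTR REVERSIR −0.25 ± 0.068 (SE), with edgeR adjusted p of 0.0504 and 0.0661, and neither passed.

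Cyp2c39 (chr19:39585352-39643019, plus strand, protein coding) was measured at 91.2, 81.3 and 70.6 CPM in PBS, 60.4, 60.0 and 55.2 in siRNA, 63.2, 68.7 and 69.7 in scrambled REVERSIR, 69.6, 69.6 and 64.5 in TTR REVERSIR, 65.0, 62.8 and 69.6 in siRNA + scrambled REVERSIR and 61.4, 68.5 and 65.8 in siRNA + TTR REVERSIR. The siRNA libraries are the lowest and the PBS libraries the highest, with PBS replicate 3 only just above the highest treated library. It passed for siRNA alone, with a log2 fold change of −0.48 ± 0.085 (SE) (edgeR, adjusted p = 0.0120). In the other 4 comparisons with PBS the log2 fold change ran from −0.32 to −0.26 and the smallest adjusted p (edgeR) was 0.0588.

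Cyp2c54 (chr19:40112431-40148301, minus strand, protein coding) was measured at 24.99, 22.8 and 18.9 CPM in PBS, 14.8, 15.8 and 15.3 in siRNA, 14.004, 13.3 and 16.3 in scrambled REVERSIR, 17.1, 12.3 and 14.5 in TTR REVERSIR, 13.5, 14.96 and 15.1 in siRNA + scrambled REVERSIR and 16.7, 14.2 and 15.3 in siRNA + TTR REVERSIR. It is a low gene, with 1628 counts in all, and its PBS libraries do not overlap the treated ones. It fell with siRNA by a log2 fold change of −0.55 ± 0.13 (SE) (edgeR, adjusted p = 0.0272), with siRNA + scrambled REVERSIR by −0.63 ± 0.12 (SE) (adjusted p = 0.0194) and with siRNA + TTR REVERSIR by −0.53 ± 0.12 (SE) (adjusted p = 0.0471). With a REVERSIR alone it was −0.64 ± 0.16 (SE) for the scrambled and −0.55 ± 0.14 (SE) for the TTR one, with edgeR adjusted p of 0.0651 and 0.0585.

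Promoters are shown for the called genes that RefSeq lists (build GRCm38.p6), as members that moved together, to show what short words they share. Each line runs 5′ to 3′ on the gene's strand from 250 bases before to 50 bases after the start site. Capitals mark CAAAGTC, a core of sites bound by the liver factor HNF4A, and AGGTCA, the hexamer at the base of nuclear receptor sites. Cyp2c39 has 2 listed starts, of which the first lies far upstream of the second.
Cyp2c29 (chr19:39286835-39287134, plus strand): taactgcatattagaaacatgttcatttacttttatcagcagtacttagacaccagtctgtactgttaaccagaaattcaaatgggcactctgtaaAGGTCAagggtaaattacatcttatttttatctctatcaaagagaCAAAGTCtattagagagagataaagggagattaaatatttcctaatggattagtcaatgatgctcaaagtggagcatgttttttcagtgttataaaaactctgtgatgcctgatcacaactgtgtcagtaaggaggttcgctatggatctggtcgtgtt
Cyp2c39 (chr19:39347096-39347395, plus strand): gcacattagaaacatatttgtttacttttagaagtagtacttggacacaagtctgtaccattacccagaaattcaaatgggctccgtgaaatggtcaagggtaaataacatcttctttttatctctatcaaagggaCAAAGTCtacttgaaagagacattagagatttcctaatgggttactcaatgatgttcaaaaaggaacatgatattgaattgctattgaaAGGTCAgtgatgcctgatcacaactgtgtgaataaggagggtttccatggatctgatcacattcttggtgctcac
Cyp2c39 (chr19:39510572-39510871, plus strand): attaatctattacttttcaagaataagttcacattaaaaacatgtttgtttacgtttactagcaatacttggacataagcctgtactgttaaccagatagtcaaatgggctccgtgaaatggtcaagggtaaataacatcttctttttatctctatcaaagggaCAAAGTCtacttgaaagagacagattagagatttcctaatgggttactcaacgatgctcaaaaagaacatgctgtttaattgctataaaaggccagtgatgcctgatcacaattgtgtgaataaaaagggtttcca
Cyp3a11 (chr5:145879805-145880104, minus strand): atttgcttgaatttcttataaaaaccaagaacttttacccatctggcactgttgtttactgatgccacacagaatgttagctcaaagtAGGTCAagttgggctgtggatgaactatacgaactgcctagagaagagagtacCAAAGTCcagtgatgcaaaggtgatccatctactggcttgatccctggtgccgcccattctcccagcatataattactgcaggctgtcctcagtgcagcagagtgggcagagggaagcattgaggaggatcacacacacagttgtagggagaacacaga

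CAAAGTC began 109 bases before the start in Cyp2c29 and in Cyp3a11, and 114 and 86 bases before it at the 2 Cyp2c39 starts. In Cyp3a11 it is the start of the longer word CAAAGTCCA. AGGTCA began 154 bases before the start in Cyp2c29 and 162 in Cyp3a11, and 25 bases before the first Cyp2c39 start. The promoter of the second Cyp2c39 start lacks it. Cyp2c29 has up to 23 bases in a row in common with the first Cyp2c39 start and up to 18 with the second. Cyp3a11 shares at most 10 with any of them. Which Cyp2c39 start was in use was not tested. Matching letters between the 2c promoters follow from their common descent, so they are not independent cases.

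**Figure D2:**
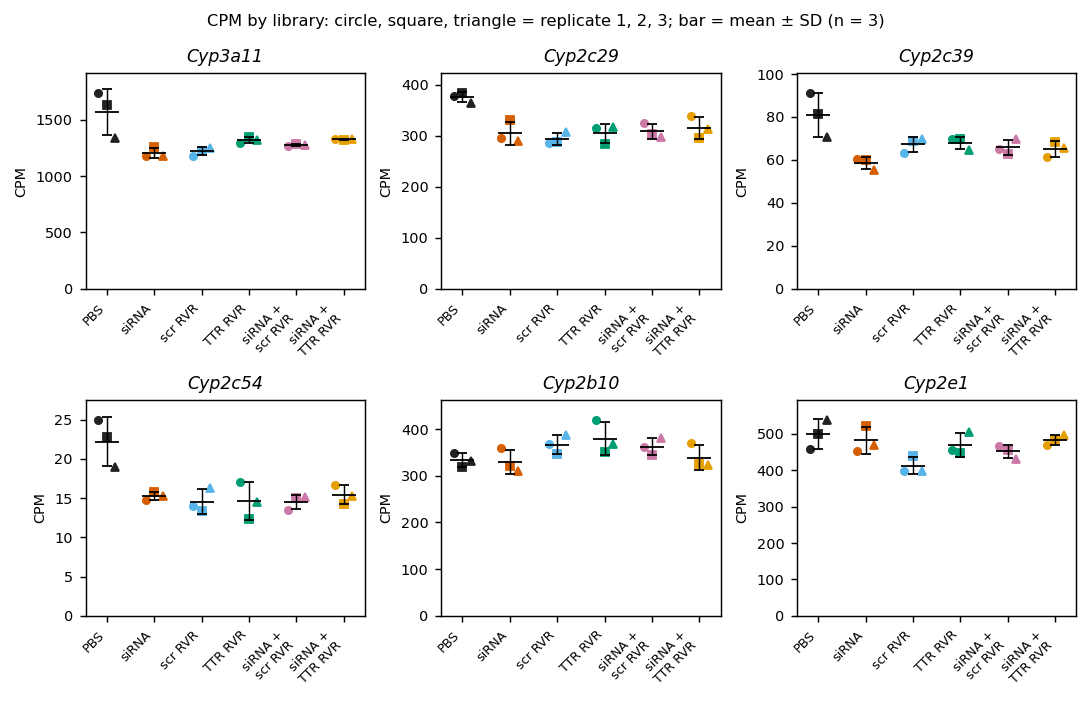
CPM of 6 P450 genes in every library (vertical axes start at 0), by group, with circle, square and triangle for replicates 1, 2 and 3 and a bar for the mean ± SD (n = 3). Cyp3a11, Cyp2c29, Cyp2c39 and Cyp2c54 are highest in PBS, where replicate 3 (triangle) is the lowest control, while Cyp2b10 and Cyp2e1 overlap PBS in 4 of the 5 treated groups each; values are after TMM scaling, and with library totals alone no P450 gene has all PBS libraries above the rest.

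How far PBS stood from the rest was also read without a test. All 3 PBS libraries were above all 15 others in 4 of 38 members and below them in 0, where 0.753% of the genes tested had PBS above (84 of 11153) and 60 genes had it below. The 4 were Cyp2c29, Cyp2c39, Cyp2c54 and Cyp3a25, a liver CYP3A, which was named after its values were seen. Scaled by library totals less mitochondrial ribosomal RNA, 2 of them remained, Cyp2c29 and Cyp2c54, and by library totals alone 0 remained.

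The calls depended on PBS replicates 1 and 2 and on the scaling. Counts are given in the order siRNA, scrambled, TTR, siRNA + scrambled and siRNA + TTR REVERSIR. Without both libraries 0 of 38 members passed in each comparison (edgeR), with 3, 6, 4, 4 and 2 at an unadjusted p under 0.05. Almost no gene of any kind passed in that fit: 0.00897%, 0%, 0%, 0.00897% and 0% of all genes tested, so the count of 0 is not a result about the members. The count of members was also 0 without either of these libraries, where 0% to 0.0448% of all genes passed. It was 0 again when only the 6 libraries of a comparison were fitted, where 0.00897%, 0.0628%, 0%, 0.0628% and 0.00897% of all genes passed. Without PBS replicate 3 the counts of members were 5, 7, 8, 7 and 6, of which 0, 1, 1, 1 and 1 were higher, beside 12.3%, 6.68%, 8.8%, 10.2% and 10.4% of all genes. Cyp2c39 in siRNA also passed without each siRNA library in turn, while the other 8 calls were lost without any 1 library of their comparison except PBS replicate 3. Against PBS replicate 3 alone, the log2 fold change of Cyp3a11 moved from −0.38 to −0.14 in siRNA and from −0.36 to −0.13 in scrambled REVERSIR, and that of Cyp2c39 from −0.48 to −0.27 in siRNA. Cyp2c29 was then at −0.25 in siRNA, −0.31 in scrambled REVERSIR and −0.25 in TTR REVERSIR. Cyp2c54 was at −0.30 in siRNA, −0.38 in siRNA + scrambled REVERSIR and −0.28 in siRNA + TTR REVERSIR, and none of these values passed. The share of mitochondrial ribosomal RNA moved with these differences (24.3% and 24.1% in the first 2 PBS libraries, 5.45% in the third), and its part in them was not tested. Marker sums moved too. Hepatocyte markers, which include Ttr, summed to 50920 ± 4539 CPM (SD, n = 3) in PBS and 44511 ± 2574 in siRNA, and to between 46369 and 48331 CPM on average in the other groups. Stellate cell markers summed to 149 ± 2.39 CPM in PBS and 124 ± 5.12 in siRNA, with no overlap between these groups, and to means of 131 to 151 CPM in the others. Kupffer cell and cholangiocyte sums were highest in PBS as well, at 349 and 14.8 CPM against group means of 306 to 329 and 11.8 to 13.3. Their part in the P450 differences was not tested.

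With library totals alone in place of TMM, 11, 3, 8, 10 and 13 members passed in the 5 comparisons in that order, and every one of them was higher under treatment. Of all genes tested 34.5%, 14.2%, 25.8%, 31.9% and 36.7% passed under that scaling, and the members' share was above this in none of the 5. None of the 9 values called after TMM was among those that passed. The median log2 fold change of all genes under that scaling was 0.33, 0.29, 0.31, 0.32 and 0.33. When mitochondrial ribosomal RNA was first taken out of the totals, a scaling chosen after seeing the data, this median was 0.11, 0.063, 0.093, 0.095 and 0.10. With mitochondrial ribosomal RNA taken out, 4, 0, 1, 1 and 0 members passed, of which 1 in siRNA and 1 in TTR REVERSIR were higher. Of all genes 5.4%, 0.215%, 2.3%, 1.99% and 2.92% then passed. The values of Cyp2c29, Cyp2c39, Cyp2c54 and Cyp3a11 were negative in all 5 comparisons under that scaling as well. With TMM, the direction of a P450 gene against PBS is a direction relative to the bulk of the genes tested.

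**Figure D3:**
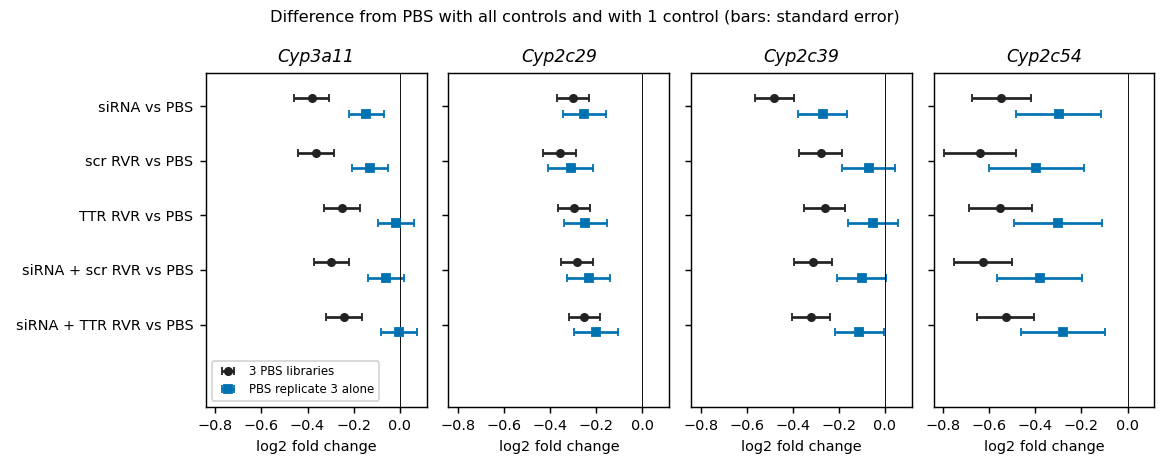
Log2 fold change against PBS of Cyp3a11, Cyp2c29, Cyp2c39 and Cyp2c54 after TMM scaling, fitted with all 3 PBS libraries (black circles) and with PBS replicate 3 alone (blue squares); bars are standard errors. The values with 1 control lie closer to 0 in every row, least so for Cyp2c29; with library totals alone instead of TMM, 11 of these 20 differences change sign.

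Over the 38 tested members the median log2 fold change against PBS was −0.11, −0.10, −0.091, −0.095 and −0.055 in the same order, beside medians of 0.0029, −0.0034, −0.0060, −0.0015 and −0.0027 for all genes. With library totals alone the members' medians were 0.21, 0.18, 0.21, 0.23 and 0.27, and against PBS replicate 3 alone, after TMM, they were −0.094, −0.088, −0.031, −0.071 and −0.039. Negative values were found in 24, 28, 23, 26 and 24 of the 38 members. The subfamilies did not share 1 picture. In 2c all 11 tested members were below PBS in siRNA and in siRNA + scrambled REVERSIR, with medians of −0.30 and −0.34, and 3 and 1 of them passed. Against PBS replicate 3 alone 9 of the 11 were below it in each, with medians of −0.16 and −0.23. These directions are after TMM scaling and shift upwards with the other scalings given above. The 11 genes were read from the same libraries and several share stretches of sequence, so they are not independent cases. In 3a the median of 5 members was −0.38 in siRNA and −0.31 in scrambled REVERSIR, with 1 call in each, and against PBS replicate 3 alone it was −0.18 and −0.13 with no call. In 2d it was 0.14 in siRNA and −0.091 in scrambled REVERSIR, over 4 members with no call, and in 4f it was 0.069 and −0.18 over 5 members with no call. Summed over its 16 members, subfamily 2c was at 1533 ± 50.4 CPM (SD, n = 3) in PBS and 1343 ± 57.9 in siRNA, and 2d at 369 ± 3.79 and 405 ± 27.8.

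**Figure D4:**
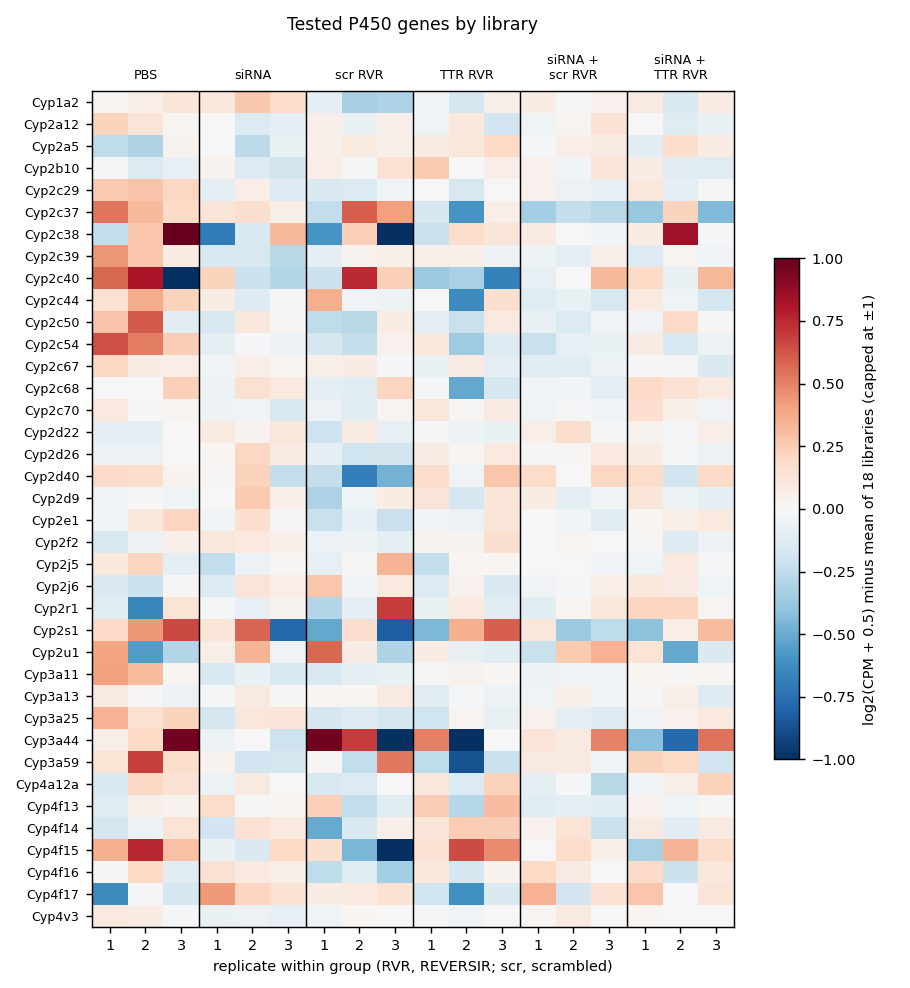
Each of the 38 tested P450 genes (rows, by subfamily) in each library (columns, by group and replicate), as log2(CPM + 0.5) minus the gene's mean over the 18 libraries, capped at ±1. Several 2c genes and Cyp3a11 are highest in PBS replicates 1 and 2, Cyp2d40 is lowest in scrambled REVERSIR, and rare genes such as Cyp2c38 and Cyp3a44 scatter within groups; the scale is after TMM, and with library totals alone the P450 medians against PBS are positive (0.18 to 0.27).

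The other leading members of each subfamily did not pass in any comparison. Among the drug-oxidising families, Cyp2b10, the textbook CAR target, was measured at 349, 319.7 and 332 CPM in PBS, 359, 321 and 309.6 in siRNA, 368, 346 and 387 in scrambled REVERSIR, 420.1, 352 and 368 in TTR REVERSIR, 361, 345 and 381 in siRNA + scrambled REVERSIR and 369.5, 325 and 323 in siRNA + TTR REVERSIR. The TTR REVERSIR libraries lay above PBS and the other groups overlapped it. The log2 fold change against PBS was 0.19 ± 0.077 (SE) in TTR REVERSIR (edgeR, adjusted p = 0.209) and −0.016 ± 0.076 (SE) in siRNA (95% interval −0.17 to 0.14).

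Cyp2c70, which makes the muricholic acids of mouse bile, was measured at 926, 855 and 884 CPM in PBS, 836, 839.5 and 774 in siRNA, 834, 799 and 884 in scrambled REVERSIR, 938, 872 and 920.0 in TTR REVERSIR, 843, 856 and 850.4 in siRNA + scrambled REVERSIR and 975, 898 and 847 in siRNA + TTR REVERSIR. The siRNA libraries lay below PBS and the other groups overlapped it. The log2 fold change ran from −0.12 to 0.036 in the 5 comparisons with PBS, and the smallest adjusted p (edgeR) was 0.318.

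Cyp2e1, the ethanol- and acetaminophen-oxidising enzyme of pericentral hepatocytes, was measured at 457, 501 and 539 CPM in PBS, 454, 523 and 469.5 in siRNA, 398, 439.8 and 399 in scrambled REVERSIR, 457, 446 and 506 in TTR REVERSIR, 466, 457 and 432 in siRNA + scrambled REVERSIR and 470.4, 484 and 498 in siRNA + TTR REVERSIR. Scrambled REVERSIR was the lowest group on average and did not overlap PBS. The log2 fold change there was −0.27 ± 0.072 (SE) (edgeR, adjusted p = 0.0830), which did not pass. In the other 4 comparisons with PBS it ran from −0.14 to −0.043.

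Cyp2d26, the most abundant of its subfamily among the members, was measured at 188, 188 and 195 CPM in PBS, 199, 226 and 207 in siRNA, 184, 170.2 and 173 in scrambled REVERSIR, 208, 199 and 209 in TTR REVERSIR, 193, 197 and 209.7 in siRNA + scrambled REVERSIR and 206, 193 and 188 in siRNA + TTR REVERSIR. Scrambled REVERSIR lay below PBS, while siRNA and TTR REVERSIR lay above it, and the log2 fold change ran from −0.11 to 0.15 in the 5 comparisons with PBS, and the smallest adjusted p (edgeR) was 0.194.

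Cyp1a2, the AHR target that oxidises caffeine and arylamines, was measured at 44.8, 46.2 and 47.9 CPM in PBS, 47.4, 53.3 and 50.2 in siRNA, 41.3, 34.9 and 35.4 in scrambled REVERSIR, 43.3, 39.1 and 45.9 in TTR REVERSIR, 46.4, 43.5 and 45.5 in siRNA + scrambled REVERSIR and 46.9, 39.6 and 46.7 in siRNA + TTR REVERSIR. Scrambled REVERSIR was again the lowest group and did not overlap PBS, with a log2 fold change of −0.31 ± 0.10 (SE) (edgeR, adjusted p = 0.158). In siRNA it was 0.12 ± 0.087 (SE).

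Cyp2a12, a steroid hydroxylase, was measured at 75.2, 70.1 and 65.3 CPM in PBS, 64.0, 58.4 and 60.2 in siRNA, 66.6, 61.2 and 66.3 in scrambled REVERSIR, 62.2, 69.1 and 56.2 in TTR REVERSIR, 62.4, 65.4 and 71.2 in siRNA + scrambled REVERSIR and 64.1, 59.0 and 61.4 in siRNA + TTR REVERSIR. PBS held the highest library, siRNA and siRNA + TTR REVERSIR lay below PBS, and the log2 fold change ran from −0.21 to −0.091 in the 5 comparisons with PBS, and the smallest adjusted p (edgeR) was 0.148. Cyp2f2, which activates naphthalene in liver and lung, was measured at 89.9, 97.1 and 104 CPM in PBS, 108, 107 and 104 in siRNA, 96.1, 96.7 and 94.5 in scrambled REVERSIR, 103, 103 and 112 in TTR REVERSIR, 100.1, 102 and 101 in siRNA + scrambled REVERSIR and 101, 91.5 and 96.8 in siRNA + TTR REVERSIR. Only the siRNA libraries did not overlap PBS, and lay above it, and the log2 fold change ran from −0.014 to 0.14 in the 5 comparisons with PBS, and the smallest adjusted p (edgeR) was 0.239.

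Among the members that handle fatty acids and vitamins, Cyp2j5, an arachidonic acid epoxygenase, was measured at 67.4, 72.8 and 58.5 CPM in PBS, 52.7, 60.0 and 62.9 in siRNA, 59.0, 62.9 and 79.3 in scrambled REVERSIR, 53.0, 63.2 and 63.5 in TTR REVERSIR, 62.8, 62.3 and 60.9 in siRNA + scrambled REVERSIR and 60.6, 67.0 and 61.6 in siRNA + TTR REVERSIR. Scrambled REVERSIR replicate 3 was the highest library and the shallowest of the series, and the log2 fold change ran from −0.17 to −0.0070 in the 5 comparisons with PBS, and the smallest adjusted p (edgeR) was 0.329. Cyp4a12a, a male-biased hydroxylase of arachidonic acid, was measured at 24.4, 31.3 and 30.0 CPM in PBS, 25.9, 28.8 and 27.1 in siRNA, 24.2, 24.6 and 27.0 in scrambled REVERSIR, 29.3, 24.6 and 31.9 in TTR REVERSIR, 25.3, 26.9 and 22.2 in siRNA + scrambled REVERSIR and 26.5, 28.2 and 31.9 in siRNA + TTR REVERSIR. Its groups overlapped throughout, and the log2 fold change ran from −0.18 to 0.036 in the 5 comparisons with PBS, and the smallest adjusted p (edgeR) was 0.416.

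Cyp4f14, a hydroxylase of vitamin E side chains, was measured at 16.9, 18.2 and 20.9 CPM in PBS, 16.6, 21.1 and 20.4 in siRNA, 13.2, 17.1 and 19.7 in scrambled REVERSIR, 20.7, 22.7 and 22.7 in TTR REVERSIR, 19.6, 21.0 and 16.3 in siRNA + scrambled REVERSIR and 20.3, 17.5 and 20.3 in siRNA + TTR REVERSIR. TTR REVERSIR was the highest group, and the log2 fold change ran from −0.18 to 0.23 in the 5 comparisons with PBS, and the smallest adjusted p (edgeR) was 0.436. Cyp4v3, a fatty acid hydroxylase whose human counterpart is mutated in a corneal and retinal dystrophy, was measured at 273, 267 and 252 CPM in PBS, 242, 244 and 239.8 in siRNA, 247, 257 and 254 in scrambled REVERSIR, 252, 248 and 253 in TTR REVERSIR, 258, 270.0 and 254 in siRNA + scrambled REVERSIR and 258, 255 and 255 in siRNA + TTR REVERSIR. It was the steadiest tested member, the siRNA libraries lay below all PBS libraries, and the log2 fold change ran from −0.13 to −0.017 in the 5 comparisons with PBS, and the smallest adjusted p (edgeR) was 0.200.

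Cyp2r1, the main vitamin D hydroxylase of liver, was measured at 7.74, 5.18 and 9.33 CPM in PBS, 8.31, 7.97 and 8.66 in siRNA, 6.81, 7.86 and 14.1 in scrambled REVERSIR, 8.03, 9.10 and 7.72 in TTR REVERSIR, 7.81, 8.56 and 9.20 in siRNA + scrambled REVERSIR and 9.90, 9.86 and 8.62 in siRNA + TTR REVERSIR. The lowest library was PBS replicate 2 and the highest scrambled REVERSIR replicate 3, and the log2 fold change ran from 0.14 to 0.36 in the 5 comparisons with PBS, and the smallest adjusted p (edgeR) was 0.336. Cyp2u1, a hydroxylase of long-chain fatty acids, was measured at 3.97, 1.80 and 2.27 CPM in PBS, 3.04, 3.80 and 2.81 in siRNA, 4.54, 3.08 and 2.25 in scrambled REVERSIR, 3.07, 2.73 and 2.66 in TTR REVERSIR, 2.40, 3.58 and 3.82 in siRNA + scrambled REVERSIR and 3.23, 1.88 and 2.57 in siRNA + TTR REVERSIR. Cyp2s1, mainly known from tissues other than liver, was measured at 2.78, 3.38 and 4.03 CPM in PBS, 2.63, 3.80 and 1.17 in siRNA, 1.51, 2.73 and 1.12 in scrambled REVERSIR, 1.61, 3.18 and 3.86 in TTR REVERSIR, 2.604, 1.73 and 1.91 in siRNA + scrambled REVERSIR and 1.67, 2.504 and 3.09 in siRNA + TTR REVERSIR. Both were so low that replicates of 1 group differed by more than the groups did. The log2 fold change of Cyp2u1 ran from −0.057 to 0.31 in the 5 comparisons with PBS, and the smallest adjusted p (edgeR) was 0.768. That of Cyp2s1 ran from −0.81 to −0.36 in the 5 comparisons with PBS, and the smallest adjusted p (edgeR) was 0.370.

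No member passed in the 7 comparisons that use no PBS library. They are 6 pairs of treated groups and an interaction, which asks whether adding siRNA has another effect with the TTR than with the scrambled REVERSIR, and DESeq2 also called 0 members in each. At an unadjusted p under 0.05 (edgeR) there were 3 members for siRNA + TTR REVERSIR against siRNA, beside 5.98% of all genes, and 1 for siRNA + scrambled REVERSIR against siRNA, beside 3.72%. There were 0 for siRNA + TTR REVERSIR against siRNA + scrambled REVERSIR (2.17% of all genes) and 6 for TTR REVERSIR against scrambled REVERSIR (7.33%). There were 5 for siRNA + scrambled REVERSIR against scrambled REVERSIR (6.22%), 3 for siRNA + TTR REVERSIR against TTR REVERSIR (4.44%) and 3 for the interaction (5.39%). At the adjusted threshold the shares of all genes were 0.00897%, 0%, 0.00897%, 0.0179%, 0.0179%, 0% and 0.00897% in the same order. The members' counts are near or below these shares except for TTR REVERSIR against scrambled REVERSIR and siRNA + scrambled REVERSIR against scrambled REVERSIR, which share the scrambled REVERSIR libraries.

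In 3 of these comparisons the smallest p among the members belonged to a 2d gene. Cyp2d40, a low neighbour of Cyp2d26, was measured at 15.5, 15.3 and 13.9 CPM in PBS, 13.6, 15.9 and 11.3 in siRNA, 11.4, 8.20 and 9.56 in scrambled REVERSIR, 15.3, 13.2 and 16.4 in TTR REVERSIR, 15.4, 13.4 and 15.6 in siRNA + scrambled REVERSIR and 15.4, 11.7 and 15.4 in siRNA + TTR REVERSIR. Scrambled REVERSIR is the lowest group, and its libraries lie below those of the other groups that received a REVERSIR. Its log2 fold change was 0.66 ± 0.20 (SE) for TTR REVERSIR against scrambled REVERSIR, 0.61 ± 0.19 (SE) for siRNA + scrambled REVERSIR against scrambled REVERSIR, and −0.70 ± 0.24 (SE) for the interaction, with edgeR adjusted p of 0.444, 0.671 and 0.889. Cyp2d26 had the smallest p for TTR REVERSIR against scrambled REVERSIR, with a log2 fold change of 0.23 ± 0.067 (SE) (edgeR, adjusted p = 0.438). Of Cyp2d40's 50-base stretches 24.5% are shared with other genes, and the scrambled REVERSIR libraries held 1755819 to 2896366 counts, among the lowest of the series. Neither gene passed, and the part of depth was not tested.

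In the other 4 comparisons the smallest p belonged to 2c and 4a genes. For siRNA + TTR REVERSIR against siRNA it was Cyp2c70, with 0.15 ± 0.067 (SE) (edgeR, adjusted p = 0.807, 95% interval 0.013 to 0.29). For siRNA + scrambled REVERSIR against siRNA it was Cyp2c39, with 0.17 ± 0.082 (SE) (edgeR, adjusted p = 1.000). For siRNA + TTR REVERSIR against siRNA + scrambled REVERSIR it was Cyp4a12a, with 0.20 ± 0.10 (SE) (adjusted p by edgeR = 1.000). For siRNA + TTR REVERSIR against TTR REVERSIR it was Cyp2c68, a 2c gene that shares 43.3% of its stretches with others, with 0.31 ± 0.13 (SE) (adjusted p by edgeR = 1.000). The 4 genes lowered against PBS did not return with the TTR REVERSIR by an amount that passed: siRNA + TTR REVERSIR differed from siRNA by 0.16 ± 0.082 (SE) for Cyp2c39 (95% interval −0.012 to 0.33), 0.14 ± 0.076 (SE) for Cyp3a11 (−0.018 to 0.30), 0.050 ± 0.068 (SE) for Cyp2c29 (−0.090 to 0.19) and 0.019 ± 0.13 (SE) for Cyp2c54 (−0.24 to 0.28). In the same libraries Ttr rose by 2.12 ± 0.093 (SE; adjusted p = 1.17e-13, edgeR).

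**Figure D5:**
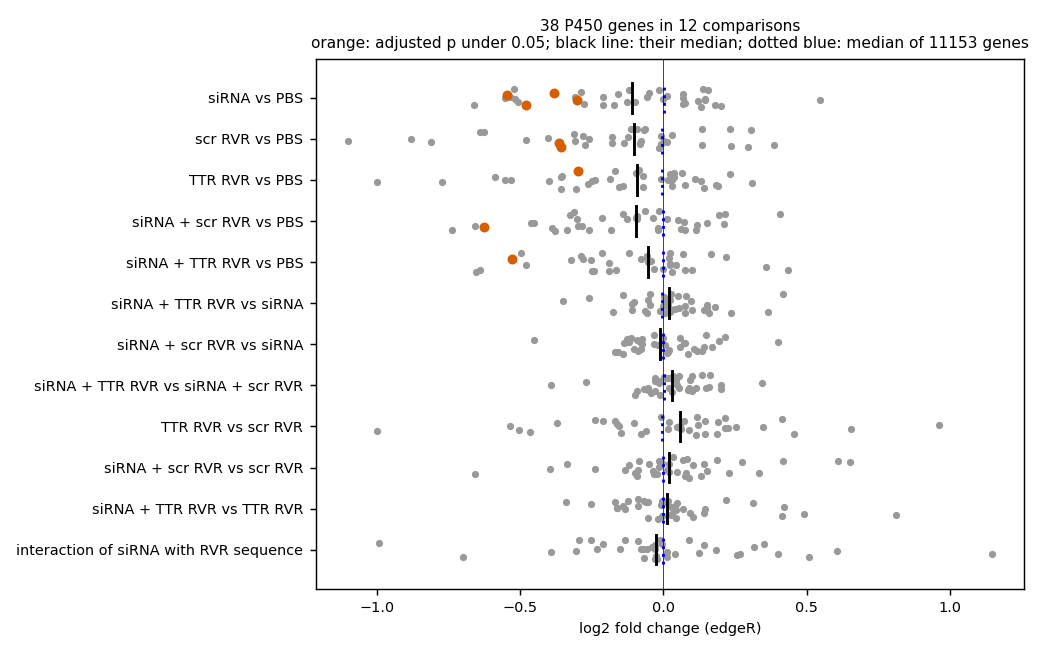
Log2 fold changes (horizontal axis, edgeR after TMM scaling) of the 38 tested P450 genes in the 12 comparisons; orange points passed an adjusted p of 0.05, the black line is their median and the dotted line the median of all genes tested. Called points occur only in the 5 comparisons with PBS, all to the left of 0 (with library totals alone 7 of these 9 values stay left of 0, none is called, and Cyp2c29 in siRNA and TTR REVERSIR turns), and the medians of the other 7 lie between −0.027 and 0.059.

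Of the 4 genes lowered against PBS, 3 are on the list of P450 genes known to be induced through CAR or PXR, as are 9 of the 38 tested members. Of 13 members known to be induced through CAR or PXR, 9 were tested, and the median log2 fold change against PBS was −0.29, −0.36, −0.30, −0.30 and −0.24 in the 5 comparisons, with 3, 2, 1, 1 and 1 calls, all lower after TMM scaling. Of all genes tested 1.6%, 0.305%, 0.359%, 0.403% and 0.439% were called lower, and the list's medians include the called genes. Against PBS replicate 3 alone the medians were −0.14, −0.064, −0.015, −0.061 and −0.0046, with no call. Targets of CAR and PXR outside the P450 family, 22 of 24 tested, had medians of 0.075, 0.080, 0.033, 0.040 and 0.030, and of 0.056, 0.050, 0.041, −0.018 and −0.042 against PBS replicate 3 alone. The one of them past the threshold against PBS was Ugt1a1, which conjugates bilirubin, at −0.54 ± 0.13 (SE) in siRNA (edgeR, adjusted p = 0.0308). Aldh1a1, a retinaldehyde dehydrogenase, was lower in TTR REVERSIR than in scrambled REVERSIR, with −0.63 ± 0.10 (SE) (edgeR, adjusted p = 0.0193). The CAR gene Nr1i3 was low in all libraries, between 0.504 and 2.85 CPM, and the PXR gene Nr1i2 ran from 20.9 to 32.6 CPM.

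Of the partners that give P450 enzymes electrons and heme, 9 were tested. Pgrmc1, a heme-binding partner, had the highest mean of them with 838 CPM, and Por was at 318 ± 13.97 CPM (SD, n = 3) in PBS and 311 ± 11.8 in siRNA. Hmox1, which breaks heme down, was lower in siRNA with −0.34 ± 0.092 (SE) (edgeR, adjusted p = 0.0491) and in scrambled REVERSIR by −0.50 ± 0.097 (SE) (adjusted p = 0.0283). Its PBS libraries were at 282, 303 and 219.6 CPM, and its siRNA libraries at 222, 201.0 and 214, so PBS replicate 3 lay among the latter. Against that library alone its log2 fold changes were −0.042 and −0.21, and neither passed.

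Of 23 tested regulators of P450 genes, Nr1h3, the oxysterol receptor LXR alpha, rose in siRNA with 0.52 ± 0.13 (SE) (edgeR, adjusted p = 0.0308), and Ahr was lower in siRNA + TTR REVERSIR with −0.37 ± 0.077 (SE) (adjusted p = 0.0283). Hnf4a, the regulator of hepatocyte genes with the highest mean level in the list, was at 373 ± 12.04 CPM (SD, n = 3) in PBS and 357 ± 3.33 in siRNA. Of 4 tested AHR targets outside the family, Tiparp, a poly(ADP-ribose) polymerase that limits AHR, was lower in siRNA with −0.33 ± 0.066 (SE) (edgeR, adjusted p = 0.0163). Of 19 tested PPARA targets outside the family, Acaa1a, a peroxisomal thiolase, rose with 0.83 ± 0.15 (SE), 0.69 ± 0.15 (SE) and 0.73 ± 0.15 (SE) in siRNA, siRNA + scrambled REVERSIR and siRNA + TTR REVERSIR (edgeR, adjusted p = 0.0125, 0.0319 and 0.0280). Its PBS libraries were at 17.3, 16.5 and 28.7 CPM. Against PBS replicate 3 alone these 3 values were 0.35, 0.21 and 0.25, with no call. Against that library alone Nr1h3 was at 0.38, Ahr at −0.23, Tiparp at −0.19 and Ugt1a1 at −0.40 in the comparisons named, and none passed. No other gene of these lists outside the P450 members passed in the 12 comparisons.

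The promoter words were also counted in all 32544 RefSeq promoters of 300 bases, on both strands, of which 62 belong to 57 members. CAAAGTC was in 21 of the 62 (33.9%) and in 4.47% of all, and CAAAGTCCA, which contains it, in 10 of the 62 and in 0.479% of all. AGGTCA was in 18 of the 62 (29.0%) and 16.2% of all, and TATAAA in 28 (45.2%) and 13.6% of all. GCGTG, the core of AHR sites, was in 11 (17.7%) and 32.6% of all. Base composition was not matched in these counts, and the 62 include promoters of duplicated neighbours, which are not independent cases. TTGCGCAA and direct repeats of AGGTCA with 1 or 4 bases between them were in 0 of the member promoters and in 0.184%, 0.0399% and 0.0154% of all. CAAAGTC was not particular to the genes lowered against PBS: of 37 promoters of tested members 10 held it, among them that of Cyp2c70, where CAAAGTCCA begins 64 bases before the start, and that of Cyp2a5.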

How the data were processed

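Gene counts of 18 RNA-sequencing libraries (3 per group) were used as the authors deposited them, raw and without normalization, per the file headers. Per the submitters' processing notes STAR, DESeq2 and the build NCBIM37 were used, for which versions, counter and strand setting are not given in the sources used. The authors' deposited tables against PBS hold a mean of normalised counts (a signal) and per gene the log2 fold change, its error, the Wald score, a p-value and an adjusted p-value, per the file headers. They gave the symbols that define the members and the values named as the authors'.

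Genes with low counts were removed by edgeR's filterByExpr by group, which left 11153. Counts were TMM-scaled and fitted with edgeR's quasi-likelihood test (edgeR 4.0.16, limma 3.58.1, R 4.3.3) in 1 model of all 18 libraries with 12 residual degrees of freedom. Of the 12 comparisons, 5 were against PBS. P-values were adjusted over all genes within a comparison (Benjamini-Hochberg, threshold 0.05). The fit was tested on simulated data. DESeq2 1.42.0, other scalings, no filter, the compared groups alone, a replicate block and leaving out libraries were tried as alternatives. Exon lengths and positions are from GENCODE vM1 (NCBIM37), promoters from RefSeq (GRCm38.p6). RefSeq promoters matched 57 of 73 members.

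Values in every library are printed for members past the threshold in any comparison and for the member with the highest level per kilobase in each of the 15 tested subfamilies; where no member passed, the one with the smallest p is given. From other gene lists, genes past the threshold or the most abundant gene are named. Members, lists and rules were chosen with earlier results of these data known.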

Additional observations from a re-analysis of the deposited data

How the results depend on the processing

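The counts of P450 members past the threshold against PBS depended on the controls, the scaling and the test. In the order siRNA, scrambled REVERSIR, TTR REVERSIR, siRNA + scrambled REVERSIR and siRNA + TTR REVERSIR the main counts were 4, 2, 1, 1 and 1. They were 0 in all 5 without PBS replicates 1 and 2, where at most 0.00897% of all genes passed, and 0 in all 5 when only the compared groups were fitted, where at most 0.0628% did. With library totals alone they were 11, 3, 8, 10 and 13, all higher, where 34.5%, 14.2%, 25.8%, 31.9% and 36.7% of all genes passed. With totals less mitochondrial ribosomal RNA, an alternative added after seeing the data, they were 4, 0, 1, 1 and 0, where 5.4%, 0.215%, 2.3%, 1.99% and 2.92% of all genes passed. DESeq2 gave 3, 3, 2, 3 and 3, where 424, 186, 162, 213 and 230 of 11153 genes passed. No filter on low counts gave 5, 2, 5 and 3 in the last 4. No share of all genes is given for that fit, so no rise is read from these counts. Leaving out 1 library at a time gave 0 to 5 for siRNA, 0 to 7 for scrambled REVERSIR, 0 to 8 for TTR REVERSIR, 0 to 7 for siRNA + scrambled REVERSIR and 0 to 6 for siRNA + TTR REVERSIR. The largest of these counts came without PBS replicate 3, where 12.3%, 6.68%, 8.8%, 10.2% and 10.4% of all genes passed. The cause of the other differences was not tested.

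Libraries of the same replicate number did not deviate together (correlations from −0.157 to 0.299, over 0.1 in 6 of 45 pairs), so numbers were not taken as pairs. With a replicate block the counts were 4, 2, 0, 1 and 0. No share of all genes is given beside them, so they are not read as a result about the members.

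Some members changed direction with the controls used: Cyp2r1 in siRNA went from a log2 fold change of 0.18 to −0.15 against PBS replicate 3 alone. For Cyp2c29, Cyp2c39, Cyp2c54 and Cyp3a11 against PBS, directions turned only with library totals alone, as log2 fold changes. Cyp2c29 was then at 0.014 in siRNA, 0.0024 in TTR REVERSIR, 0.022 in siRNA + scrambled REVERSIR and 0.070 in siRNA + TTR REVERSIR. Cyp2c39 was at 0.025 in scrambled REVERSIR, 0.065 in TTR REVERSIR, 0.020 in siRNA + scrambled REVERSIR and 0.021 in siRNA + TTR REVERSIR. Cyp3a11 was at 0.064 in TTR REVERSIR, 0.028 in siRNA + scrambled REVERSIR and 0.096 in siRNA + TTR REVERSIR. In the 7 comparisons without PBS the count of members stayed 0 under each alternative run.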

Other observations

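P450 genes outside families 1 to 4 make sterols, bile acids and vitamin derivatives rather than drug metabolites. Of 15 such genes with a symbol in the tables, 7 were tested and 0 passed against PBS (edgeR, adjusted p), with 0, 1, 0, 0 and 0 at an unadjusted p under 0.05, where 20.1%, 14.7%, 16.4%, 17.7% and 17.7% of all genes were. Their median log2 fold changes were 0.022, 0.11, 0.0084, 0.053 and 0.067 in siRNA, scrambled, TTR, siRNA + scrambled and siRNA + TTR REVERSIR, and 0.11, 0.15, 0.093, 0.17 and 0.19 against PBS replicate 3 alone. Together they summed to between 240.1 and 268 CPM in the 18 libraries. Cyp27a1, which oxidises the cholesterol side chain towards bile acids, led with a mean of 127 CPM, and Cyp20a1, whose substrate is not known, had 54.4 CPM.

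Liver P450 genes differ along the lobule, so genes of either zone outside the family were read as well. Of 10 tested pericentral genes, the uptake transporter Slco1b2 was lower in scrambled REVERSIR, with a log2 fold change of −0.56 ± 0.11 (SE; edgeR, adjusted p = 0.0314), and in TTR REVERSIR, with −0.53 ± 0.10 (adjusted p = 0.0357). Against PBS replicate 3 alone Slco1b2 was at −0.59 and −0.56, as large as with all controls but not past the threshold. Ahr, on this list too, is given with the regulators above. Of 12 tested periportal genes 0 passed against PBS by edgeR, with 3, 5, 0, 3 and 3 at an unadjusted p under 0.05 beside the same shares of all genes, and Cps1, the first enzyme of the urea cycle, led them with a mean of 531 CPM.

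By the authors' deposited tables an adjusted p under 0.05 was reached by 3 members in siRNA, 3 in scrambled REVERSIR, 2 in TTR REVERSIR, 3 in siRNA + scrambled REVERSIR and 3 in siRNA + TTR REVERSIR, all lower. Cyp2c29 and Cyp3a11 were among them in each of the authors' deposited tables, Cyp2c39 in the 3 with siRNA, and Cyp2e1 in scrambled REVERSIR. Cyp2c54 has no adjusted p in the authors' deposited tables, where only 16 to 24 of the 73 members have one. The share of all genes past the threshold in them was not counted, so these counts are not read as a result about the members.

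Cyp2d10 carries no symbol in the deposited tables and so is no member, though GENCODE gives its identifier that name. It held 28147 counts over the 18 libraries, more than Cyp2d26, and ran from 229 to 315 CPM. Its mean of 275 CPM is missing from the 2d sums above, where the 2d members had a mean of 379 CPM and 2e had 466. The rank of 2d below 2e therefore holds for the members found by symbol alone. It is named after its values were seen.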
